A study of Mus musculus with 40 samples.

Results

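The endothelin system was described in retina and choroid of laser-treated mice through 6 genes, taken by symbol from the 54307 genes of the deposited table and all 6 matched. These are the ligand genes *Edn1*, *Edn2* and *Edn3*, the receptor genes *Ednra* and *Ednrb*, and *Ece1*, which encodes endothelin converting enzyme. Endothelins are short peptides that are cut from longer precursors, first by furin-type proteases and then by the converting enzyme, and that act on smooth muscle, endothelial, glial and pigment cells. The receptor encoded by *Ednra* prefers endothelin-1 and endothelin-2 and mainly constricts vessels, while the receptor encoded by *Ednrb* binds all the ligands with like affinity, and with *Edn3* it is needed for melanocytes to develop. In the retina, *Edn2* is known as a gene that injured photoreceptors switch on and *Ednrb* as a receptor gene of Müller glia.

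RNA came from the retina and the central choroid of 20 mice (40 libraries) taken 3 days after 6 laser burns per eye, which induce choroidal neovascularization (CNV). All mice were of C57BL/6J background, carried floxed *Tgfbr2* alleles (Tgfbr2 fl/fl) and received tamoxifen eye drops from 6 to 7 weeks of age. *Tgfbr2ΔEC* mice (CrePos) also carried Cdh5-CreERT2, a tamoxifen-inducible recombinase under the promoter of an endothelial cadherin gene, and their control littermates (CreNeg) did not. Of each genotype 5 mice received the CSF1 receptor inhibitor PLX5622 (PLX) in the diet from the first tamoxifen dose until the end, and 5 did not, so that each tissue had 4 groups. No eye without laser burns was sequenced. Each mouse gave 1 library per tissue, and Y-linked genes were expressed in 3 control and 2 *Tgfbr2ΔEC* mice without PLX and in 3 and 1 with PLX.

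The values are normalized counts, estimated reads per gene that the authors scaled between libraries. About 21628874 to 28174821 reads lay behind a choroid and 20940403 to 30421581 behind a retina, so that 3 reads, taken as the detection floor, were worth 2.72 to 3.56 and 2.24 to 3.38 normalized counts. For each cell type a marker score was formed by averaging log2(normalized count + 1) over its listed genes. The neural retina score was 15.8 to 16.5 in retinas and 7.61 to 12.9 in choroids, so that every choroid held some RNA of these marker genes, whose source was not tested. The pigment cell score was 13.02 to 13.7 in choroids and 3.73 to 7.04 in retinas. The phagocyte score differed with PLX by -2.29 in control and by -2.32 in *Tgfbr2ΔEC* choroids (exact permutation test, p = 0.00794 in each, n = 5 against 5). *Tgfbr2* itself, the deleted gene, differed between genotypes by -0.05 on the log2 scale in choroids without PLX (exact permutation test, p = 0.524) and by 0.02 with PLX (exact permutation test, p = 0.865). In retinas it differed by -0.32 and -0.07 (exact permutation test, p = 0.325 and 0.794), so the count over the whole gene did not show the endothelial deletion. The study reports that PCR and qPCR of choroidal tissue showed the deletion, a measure not made here.

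The ligands are shown by the coding bases of their mature peptides, because the tissues differed in which ligand gene predominated. Each stretch of 63 bases encodes 21 residues, lies in exon 2 of 5 of the gene, and is written 5′ to 3′ on the plus strand of GRCm39. Capitals mark the bases that are not the same in all of the ligand genes. They were read from GENCODE transcripts at chr13:42457125-42457187 (*Edn1*), chr4:120019148-120019210 (*Edn2*) and chr2:174603542-174603604 (*Edn3*).
Edn1: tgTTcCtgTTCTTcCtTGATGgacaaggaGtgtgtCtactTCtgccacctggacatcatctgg
Edn2: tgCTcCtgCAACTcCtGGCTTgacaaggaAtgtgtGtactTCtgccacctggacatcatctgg
Edn3: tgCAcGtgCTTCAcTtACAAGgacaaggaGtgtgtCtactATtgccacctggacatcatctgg
The stretches share 45 of 63 bases, and *Edn1* and *Edn2* encode the same residue at 18 of 21 positions. *Edn3* encodes the same residue as *Edn1* at 15 and as *Edn2* at 15. Read estimates of the ligand genes rest on their whole transcripts and not on this stretch alone. The whole genes span 42446301 to 42461466 on chromosome 13 for *Edn1*, 120018403 to 120024557 on chromosome 4 for *Edn2*, and 174602088 to 174625835 on chromosome 2 for *Edn3*. The receptor genes lie on the minus strand, *Ednra* from 78386590 to 78451552 on chromosome 8 and *Ednrb* from 104052053 to 104081900 on chromosome 14. *Ece1* is also on chromosome 4, on the plus strand, from 137589530 to 137692542.

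To see where the genes of the system are expressed, choroid and retina of the same mice were compared. Choroids expressed *Edn3*, *Ednrb*, *Ednra*, *Ece1* and *Edn1* above retinas, and retinas expressed *Edn2* above choroids, each in 20 of 20 mice. The limma fit took the 40 libraries as independent, and a fit that pairs the tissues of a mouse is given at the end. The threshold of an adjusted p of 0.05 was met by 6 of 6 members, but also by 82% of the 24317 genes tested (limma over 40 libraries with Benjamini-Hochberg adjustment), so the count alone does not set them apart. The size of the difference did vary between them: the absolute log2 difference was larger than in 99.7% of all genes for *Edn3*, 96.6% for *Ednrb*, 95.7% for *Ednra* and 95.5% for *Edn2*. It was larger than in 70.1% for *Ece1* and in 66.6% for *Edn1*, and the median over all genes was 1.07. *Edn3* was the 1 member with fewer than 100 genes ahead of it, 74 genes having a larger excess in choroid.

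Of the ligands, *Edn3* ranged from 4718 to 12072 normalized counts in the 20 choroids (median 6532) and from 3.36 to 50.6 in the 20 retinas (median 14.2), a log2 difference of 8.91 (SE 0.24, adjusted p = 3.48e-29 from limma). The tissues did not overlap. *Edn2* ran the other way, from 223 to 1809 in retinas (median 664) and from 0 to 303 in choroids (median 13.6), with a log2 difference of -5.45 (SE 0.37, adjusted p = 3.24e-16 from limma). One choroid reached into the retinal range, and otherwise the highest choroid was at 127. *Edn1*, the main endothelin of vascular endothelium, was at 104 to 305 in choroids (median 228) and 52.0 to 109 in retinas (median 61.4; log2 difference 1.74, SE 0.10, adjusted p = 4.15e-18 from limma), with a narrow overlap between the highest retina and the lowest choroid.

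Both receptor genes were mainly choroidal. *Ednrb* was at 8553 to 13848.5 normalized counts in choroids (median 10872) and 137 to 347 in retinas (median 199; log2 difference 5.79, SE 0.08, adjusted p = 1.37e-37 from limma). *Ednra* was at 1491 to 2263 (median 1738) and 22.4 to 57.0 (median 40.6; log2 difference 5.53, SE 0.09, adjusted p = 2.22e-36 from limma). *Ece1* was high in both tissues, at 3932 to 7870.2 in choroids (median 5858) and 793 to 2546 in retinas (median 1590.5; log2 difference 1.95, SE 0.12, adjusted p = 4.06e-18 from limma). For none of these genes did the tissues overlap. In a bulk sample, more cells of a type and more RNA per cell cannot be told apart.

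**Figure D1:**
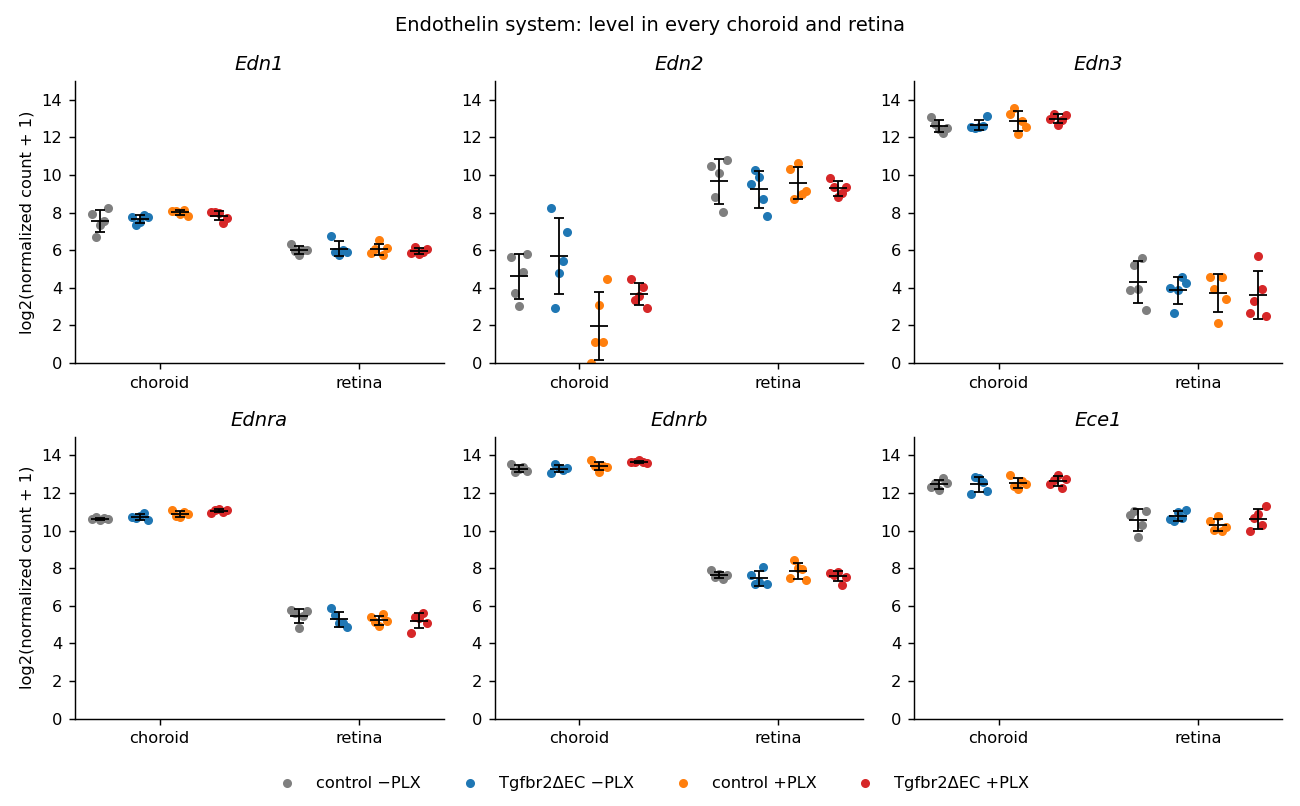
Level of each gene of the endothelin system in every choroid and retina, as log2(normalized count + 1) on a linear axis, with 5 mice per group as points and the group mean ± SD as bars. *Edn3*, *Ednra*, *Ednrb* and *Ece1* are higher in all 20 choroids than in any retina, *Edn2* lies higher in retinas, and its choroid values with PLX reach down to 0.

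Per kilobase of the canonical transcript, which allows genes to be compared with each other, the order in choroid was *Ednrb* (median 2700.5 normalized counts per kilobase), *Edn3* (1898), *Ece1* (1211), *Ednra* (242), *Edn1* (97.3) and *Edn2* (9.31). The ranges over mice of the neighbours *Ednrb* and *Edn3*, *Edn3* and *Ece1*, and *Edn1* and *Edn2* overlapped. The order in retina was *Edn2* (454), *Ece1* (329), *Ednrb* (49.4), *Edn1* (26.1), *Ednra* (5.66) and *Edn3* (4.13), where *Ece1* and *Ednrb*, and *Edn1* and *Ednra*, were the neighbours that did not overlap. *Edn3* thus held a median of 94.8% (range 85.4 to 97.4) of the ligand transcripts per kilobase in choroid, and *Edn2* held 93.0% (81.2 to 97.8) in retina. *Ednrb* held most of the receptor transcripts in both, 91.5% (89.4 to 93.0) in choroid and 89.3% (83.8 to 94.7) in retina.

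**Figure D2:**
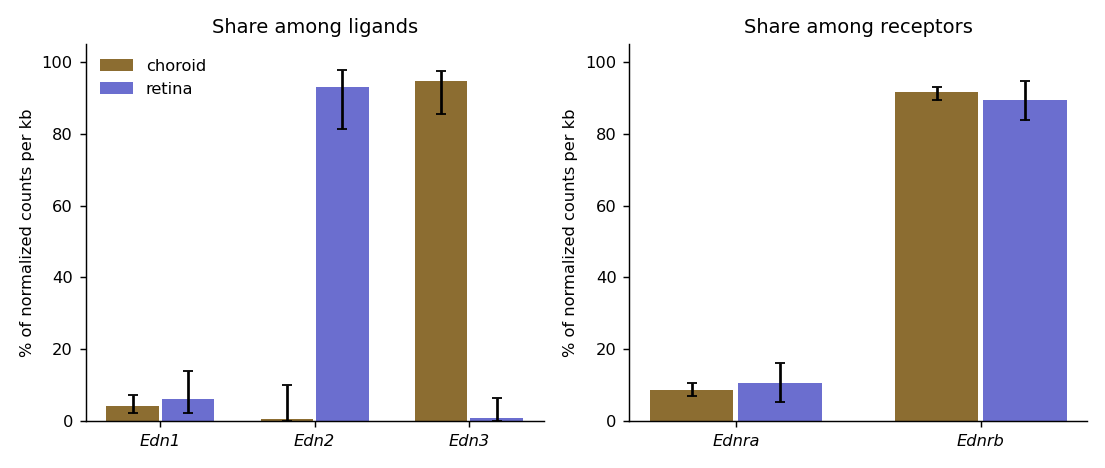
Share of each ligand gene among the ligands, and of each receptor gene among the receptors, in % of normalized counts per kilobase of transcript, as the median of 20 mice (bars) with the lowest and highest mouse (whiskers). *Edn3* makes up 94.8% of ligand transcripts in choroid and *Edn2* 93.0% in retina, while *Ednrb* leads the receptors in both tissues.

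RNA from the other tissue bears on the low values. For each mouse, the level in the other tissue was multiplied by the median ratio of marker genes between the tissues, a measure added after the values were seen. For *Edn3* in retina the median level was 14.2 normalized counts, beside a median product of 14.95 from pigment cell markers, 5.31 from fibroblast markers and 163 from retinal pigment epithelium (RPE) markers. The level was above the pigment cell product in 10 of 20 mice, above the fibroblast product in 17 and above the RPE product in 0. For *Ednra* in retina it was above the RPE product in 8 of 20 mice and for *Ednrb* in 5, and both were above the pigment cell and the fibroblast products in 20 of 20. *Edn1*, *Edn2* and *Ece1* in retina were above all of these products in 20 of 20 mice. Which part of the retinal *Edn3*, *Ednra* and *Ednrb* came from adhering choroid or RPE was not tested.

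The other genes of the pathway were read from fixed lists. Of 8 genes that process or degrade endothelins, 7 were tested, 4 of them higher in choroid and 2 higher in retina (median log2 difference 1.68, all genes -0.01). Lowest in p on both lists were *Rhoa* (log2 difference 1.59, SE 0.03), *Gna12* (1.65, SE 0.04), *Itpr3* (3.64, SE 0.10) and *Ctsa* (1.68, SE 0.05), which encode a small GTPase, a G protein subunit, an intracellular calcium channel and a lysosomal carboxypeptidase. The next genes were chosen after their values were seen. *Mme*, encoding the peptide-degrading enzyme neprilysin, was higher in choroid by 4.60 (SE 0.16), and *Cma1*, encoding a mast cell chymase, by 6.02 (SE 0.32), whereas *Ece2*, a relative of *Ece1*, was higher in retina (log2 difference -3.73, SE 0.19; adjusted p = 1.89e-20 from limma). Of 18 genes of receptor signalling, 15 were higher in choroid and 3 in retina (median 0.73). Among all 24317 genes, of which 82% were called, 9924 were higher in choroid and 10006 in retina. The exceptions were *Prkca* (-1.88, SE 0.11), *Plcb1* (-1.47, SE 0.09) and *Plcb4* (-1.31, SE 0.07), which encode a protein kinase C and forms of phospholipase C. These genes also serve many other receptors.

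Among the mice, *Edn2* varied widely in retina. It was at 1436, 458, 1118, 260.1 and 1809 normalized counts in control retinas without PLX and at 732, 1211, 943, 418.5 and 223 in *Tgfbr2ΔEC* retinas without PLX. With PLX it was at 1260.4, 416, 1568, 503 and 576 in controls and at 911, 662, 450.3, 523 and 666 in *Tgfbr2ΔEC* mice. All groups overlapped, and the *Tgfbr2ΔEC* retinas with PLX had the narrowest range. Its SD within groups was 0.90 on the log2 scale, above that of 97.7% of the 13825 genes with a mean of at least 50 in retina (median 0.27). The SD of *Ece1* was 0.45, of *Ednra* 0.36, of *Ednrb* 0.34 and of *Edn1* 0.28. That of *Edn3*, 1.06, was larger still, at values that reached down to 3.36 normalized counts, near the detection floor.

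The retinal level of *Edn2* went with a score of 10 genes that rise in stressed retina (*Gfap*, *Lif*, *Fgf2*, *Stat3*, *Socs3*, *Cebpd*, *Osmr*, *Serpina3n*, *Bcl3* and *Timp1*). After centring on group means, Pearson's r was 0.88 over 20 mice (permutation test within groups, p = 4e-05, adjusted p = 0.00144 over 36 relations in retina) and Spearman's rho was 0.85 (permutation p = 5e-05). Without the 2 mice farthest from the median score, r was 0.83. Within groups of 5, r was 0.91 and 0.95 in control and *Tgfbr2ΔEC* mice without PLX and 0.93 and 0.32 in those with PLX, values that were not tested group by group. Of the 10 genes 9 passed on their own, which is not separate support, since the genes make up the score. The share of all retinal genes that pass in this way was not determined, and outside the list *Agtpbp1*, *Irf9* and *Rfx2* reached r of 0.93, 0.92 and 0.92. Among the 10, r ran from 0.50 for *Lif* to 0.91 for *Cebpd*, which encodes a transcription factor of the acute phase response. For *Cebpd* rho was 0.87 and r was 0.88 without the 2 farthest mice (permutation p = 1e-05, the smallest that the resamples can give; adjusted p = 0.0001 over 10 genes). *Stat3*, the gene that did not pass, had r = 0.53 (permutation p = 0.0533, adjusted p = 0.0533). For *Gfap*, the intermediate filament of reactive glia, r fell from 0.67 to 0.30 without the 2 farthest mice. No other relation of the 36 passed the threshold. The next was *Edn3*, inversely related to the same score (r = -0.61, rho = -0.63, permutation p = 0.00547, adjusted p = 0.0985). The score itself did not pass a test between genotypes without PLX, with means of 8.37 in *Tgfbr2ΔEC* and 8.89 in control retinas (exact permutation test, p = 0.246, n = 5 against 5).

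**Figure D3:**
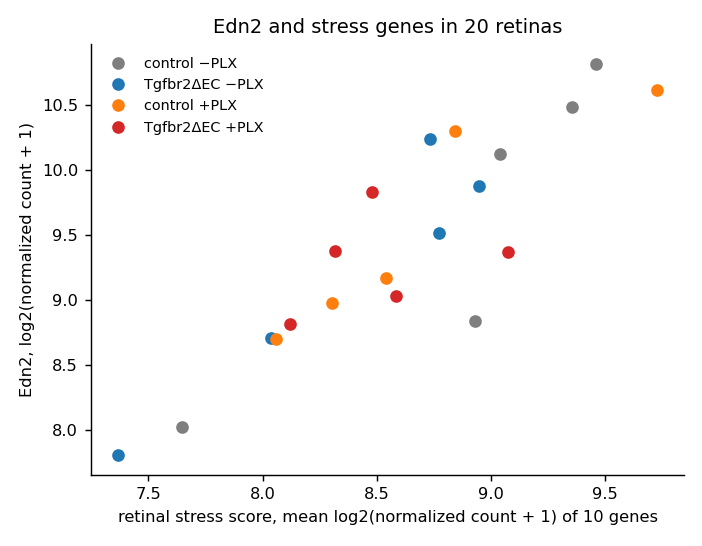
*Edn2* in 20 retinas, as log2(normalized count + 1), against the retinal stress score, the mean of log2(normalized count + 1) over 10 genes, with 1 point per mouse coloured by group. Over the 20 mice r was 0.88 after centring on group means. The 5 *Tgfbr2ΔEC* mice with PLX had the lowest r among themselves, 0.32, and the narrowest spread of the score (SD 0.36).

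To ask whether endothelial loss of *Tgfbr2* changed the system, genotypes were compared within each diet. The answer was that 0 of 6 genes passed the threshold in choroid or retina, with or without PLX (limma with Benjamini-Hochberg adjustment). The background was 0.00423% of 23619 genes in choroid for either diet (1 gene, the pseudogene *Gm8748*, named here after its values were seen) and 0% of 23243 genes in retina for either diet. The choroid count without PLX was not stable, at 411 genes without mouse 15 and 303 in a fit of the 10 mice alone, where still 0 of 6 members passed. At an unadjusted p of at most 0.05 there were 2184 genes in choroid without PLX and 889 with PLX, and 758 and 629 in retina. Among the 6 genes, 0 reached this in choroids without PLX, 0 in retinas, and 2 in choroids with PLX. These were *Ednrb*, with a log2 difference of 0.23 (SE 0.11, adjusted p = 1 from limma; exact permutation test, p = 0.0476), and *Ednra*, with 0.17 (SE 0.08, adjusted p = 1 from limma; exact permutation test, p = 0.0476). Without PLX the differences of *Ednrb* and *Ednra* were 0.00 (95% interval -0.22 to 0.23) and 0.09 (-0.08 to 0.26). The interaction of genotype and PLX passed for 0 of 6 genes in either tissue, as for 0% of all genes, with 1552 genes in choroid and 567 in retina at an unadjusted p of at most 0.05 but none of the 6.

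*Edn2* had the widest interval between genotypes in choroid, where its values were low and uneven. It was at 49.2, 12, 7.25, 28.1 and 55.2 normalized counts in control choroids without PLX and at 303, 6.74, 26.8, 42.3 and 127 in *Tgfbr2ΔEC* choroids without PLX. The log2 difference was 1.07 (SE 0.88, adjusted p = 0.805 from limma; 0.43 without mouse 6 and 1.75 without mouse 7), with *Tgfbr2ΔEC* mice both below and above all controls. Scores of retinal neurons and of mast cells differed in the same choroids. The neural retina score was 11.3 to 12.9 in *Tgfbr2ΔEC* and 7.72 to 10.7 in control choroids without PLX (exact permutation test, p = 0.00794, n = 5 against 5), although 0 of 10 markers passed on their own (limma; all 10 had a difference above 0, median 2.48) and 0 were at 0 in all choroids. The mast cell score was 2.521 to 4.655 in *Tgfbr2ΔEC* and 4.028 to 6.085 in control choroids (exact permutation test, p = 0.0476, n = 5 against 5), with 0 of 6 markers passing on their own (limma; 6 differences below 0, median -1.48). Its part in the *Edn2* values was not tested. Adjusted for the neural retina score, the *Edn2* difference was -0.76 (adjusted p = 0.999 from limma). The score ranges did not overlap between these groups, so the adjusted value cannot separate genotype from the score. With PLX the *Edn2* difference between genotypes was 1.70 (SE 0.88) before and 1.63 after this adjustment, and neither passed.

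With PLX, under which phagocyte markers fell, the choroid changed in 2 genes of the system over both genotypes, a comparison added after the values were seen. *Ednra* was higher by 0.29 on the log2 scale (SE 0.06, adjusted p = 0.00236 from limma) and *Edn2* lower, by -2.34 (SE 0.62, adjusted p = 0.0231 from limma), so 2 of 6 passed beside 7.13% of all genes. Adjusted for the neural retina score, the *Edn2* difference was -1.54 and no longer passed (adjusted p = 0.123 from limma). Within one genotype, 0 of 6 passed in controls, beside 3.75% of all genes, and 1 of 6, *Ednra*, passed in *Tgfbr2ΔEC* mice, beside 4.06% (limma). At an unadjusted p of at most 0.05 there were 3 of 6 in controls, beside 3249 of 23619 genes. In *Tgfbr2ΔEC* mice there were 3 of 6, beside 3634 of 23619 genes. These comparisons share no mice between genotypes, and neither gene's effect passed a test of the difference between genotypes.

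*Ednra* was at 1579, 1686, 1523, 1601 and 1587 normalized counts in control choroids without PLX and at 2156, 1732, 1715, 2007.5 and 1866 with PLX. These groups did not overlap (log2 difference 0.24, SE 0.08, adjusted p = 0.126 from limma; exact permutation test, p = 0.00794, the smallest that 5 mice against 5 can give). In *Tgfbr2ΔEC* choroids it was at 1671, 1603, 1744, 1993 and 1491 without PLX and at 1969, 2203, 2263, 2046 and 2171 with PLX. Here 1 mouse without PLX lay within the range of those with PLX (log2 difference 0.33, SE 0.08, adjusted p = 0.0229 from limma; exact permutation test, p = 0.0159). Leaving out any of 6 mice (6, 7, 10, 17, 18 or 20) took this adjusted p above 0.05, to 0.0616 at most, while over both genotypes *Ednra* passed whichever mouse was left out. Adjusted for the neural retina score, the *Tgfbr2ΔEC* difference was again 0.33 but its adjusted p was 0.130 (limma). The score did not overlap between these groups (8.996 to 10.31 with and 11.32 to 12.86 without PLX), so this adjustment cannot separate PLX from the score.

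*Ednrb* in *Tgfbr2ΔEC* choroids was at 8553, 11882, 10431, 9416 and 10419 normalized counts without PLX and at 12893, 12956, 13677.5, 12894 and 12224 with PLX. The groups did not overlap, and the log2 difference of 0.36 (SE 0.11) missed the threshold (adjusted p = 0.0665 from limma; exact permutation test, p = 0.00794). Its adjusted p was 0.0279 in a fit of the 10 *Tgfbr2ΔEC* mice, 0.0355 to 0.0424 without mouse 7, 11 or 13, 0.197 without mouse 6, and 0.373 when adjusted for the neural retina score (limma). The score did not overlap between these groups, so this last adjustment cannot separate PLX from the score. In control choroids *Ednrb* was at 11843, 8924, 9896, 10768 and 9108 without PLX and at 13848.5, 11160.3, 8875, 10973 and 10772 with PLX. There the groups overlapped (0.13, SE 0.11, adjusted p = 0.665 from limma). Over both genotypes the difference was 0.25 (SE 0.08, adjusted p = 0.0560 from limma), and leaving out mouse 1, 7 or 13 brought this adjusted p to between 0.0156 and 0.0312. It was also past the threshold with upper-quartile scaling (adjusted p = 0.0417 from limma) and with a minimum mean of 10 (adjusted p = 0.0439). Adjusted for the neural retina score the difference was 0.23 (adjusted p = 0.151 from limma), and the highest adjusted p with a mouse left out was 0.113.

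Markers of several cell types moved in the same choroids. The endothelial score rose with PLX from a range of 11.12 to 11.26 to one of 11.27 to 11.59 in controls (difference 0.26; exact permutation test, p = 0.00794) and from 11.22 to 11.41 to one of 11.39 to 11.6 in *Tgfbr2ΔEC* mice (0.25; exact permutation test, p = 0.0159). Over both genotypes 7 of 10 endothelial markers were called higher and 0 lower, with a median log2 difference of 0.25. Of all 23619 genes, 489 were called higher and 1195 lower over both genotypes (limma). The mural score, for pericytes and smooth muscle, was higher by 0.24 in *Tgfbr2ΔEC* mice (12.04 to 12.29 against 11.82 to 11.97; exact permutation test, p = 0.00794). In controls it differed by 0.24 with overlap (exact permutation test, p = 0.111), and 2 of 10 mural markers were called over both genotypes. In *Tgfbr2ΔEC* mice the fibroblast score was higher by 0.23 (14.97 to 15.27 against 14.52 to 15.04; exact permutation test, p = 0.0317) and the mast cell score by 1.25 (4.373 to 5.515 against 2.521 to 4.655; exact permutation test, p = 0.0238). In controls these scores differed by 0.13 and -0.64 (exact permutation test, p = 0.127 and 0.532). The pigment cell and RPE scores differed by 0.22 and 0.22 in *Tgfbr2ΔEC* mice (exact permutation test, p = 0.0714 and 0.183). There 8 of 8 pigment cell markers were higher and 0 were called (limma). In controls the differences of these scores were 0.08 and 0.12 (exact permutation test, p = 0.563 and 0.437). Over both genotypes 1 of 8 fibroblast and 2 of 7 Schwann cell markers were called higher, and 0 of 6 mast cell markers (limma). Of 10 phagocyte markers 9 fell. No marker of these lists was at 0 in all choroids. The part of these cell types in the receptor differences was not tested.

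*Edn2* in choroids with PLX was at 0, 1.18, 7.39, 1.14 and 21.5 normalized counts in controls and at 20.97, 9.13, 10.7, 15.2 and 6.64 in *Tgfbr2ΔEC* mice. Of the control choroids with PLX 3 of 5 were at or under the floor of 3 reads, and 0 were in the other groups, so the log2 difference in controls (-2.66, SE 0.88, adjusted p = 0.122 from limma; exact permutation test, p = 0.0397) depends on the added 1. In *Tgfbr2ΔEC* mice the log2 difference was -2.03 (SE 0.88, adjusted p = 0.256 from limma; exact permutation test, p = 0.0714). Groups with and without PLX overlapped in both genotypes. The neural retina score of *Tgfbr2ΔEC* choroids fell with PLX from 11.32 to 12.86 down to 8.996 to 10.31 (difference -2.18; exact permutation test, p = 0.00794), with 1 of 10 markers called lower and 10 of 10 differences below 0. In controls it differed by 0.09 (exact permutation test, p = 0.952). Adjusted for this score, the *Edn2* difference was -0.34 (adjusted p = 0.963 from limma) in *Tgfbr2ΔEC* mice and -2.73 (adjusted p = 0.0289) in controls. In *Tgfbr2ΔEC* mice the score ranges did not overlap, so the adjusted value cannot separate PLX from the score. Without mouse 15, the control choroid with PLX whose neural retina score was 12.8, the difference in controls was -3.29 (adjusted p = 0.0364 from limma).

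The choroid level of *Edn2* was also set beside the product of the same mouse's retinal level and its marker ratio, which was 0.174% to 10.6% for neural retina genes. Its median was 13.6 normalized counts against a median product of 7.76. Control choroids without PLX were above their product in 5 of 5 mice, and by more than 2 times in 3. *Tgfbr2ΔEC* choroids without PLX were above it in 2 of 5, mice 6 and 10, both by more than 2 times. Control choroids with PLX were above it in 1 of 5 and *Tgfbr2ΔEC* choroids with PLX in 5 of 5, none by more than 2 times. For *Edn1*, *Edn3*, *Ednra*, *Ednrb* and *Ece1* the choroid level was above this product in 20 of 20 mice.

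**Figure D4:**
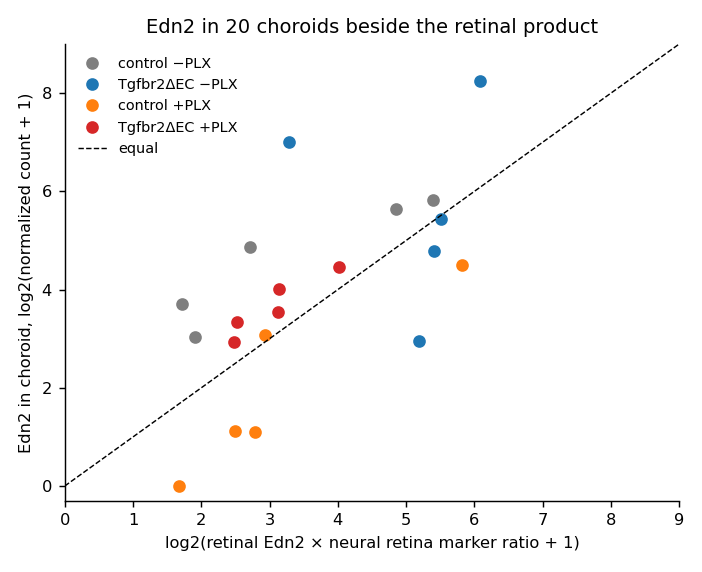
*Edn2* in 20 choroids against the product of the same mouse's retinal *Edn2* and the ratio of neural retina markers between its tissues, both as log2(value + 1), with 1 point per mouse coloured by group and a dashed line where they are equal. In 13 of 20 mice the level lies above the line, and the 2 *Tgfbr2ΔEC* mice at 127 and 303 normalized counts stand highest.

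The other genes did not pass with PLX in choroid. *Edn1* differed by 0.45 (SE 0.21, adjusted p = 0.353 from limma) in controls, from 104 to 305 without and 222 to 278 with PLX, and by 0.18 (SE 0.21) in *Tgfbr2ΔEC* mice. *Edn3* differed by 0.29 and 0.33 (SE 0.21 each) and *Ece1* by 0.07 and 0.17 (SE 0.18 each). Over both genotypes the adjusted p was 0.259 for *Edn1*, 0.251 for *Edn3* and 0.665 for *Ece1* (limma).

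In retina 0 of 6 genes passed with PLX in controls, in *Tgfbr2ΔEC* mice or over both, beside 0.736%, 0.516% and 1.09% of 23243 genes, although the phagocyte score fell from 6.80 to 7.91 down to 1.31 to 2.42 in controls. None of the 6 had an unadjusted p of 0.05 or less there. The log2 difference of *Edn2* over both genotypes was -0.03 (95% interval -0.77 to 0.71). Whether PLX acted differently in the tissues was tested on each mouse's difference between choroid and retina. It passed for 0 of 6 genes, beside 1.1% of 24317 genes. Beside 2408 of 24317 genes, 2 of the 6 had an unadjusted p of at most 0.05. These were *Edn2*, at -2.31 (SE 0.74, adjusted p = 0.202 from limma), and *Ednra*, at 0.44 (SE 0.16, adjusted p = 0.303 from limma).

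**Figure D5:**
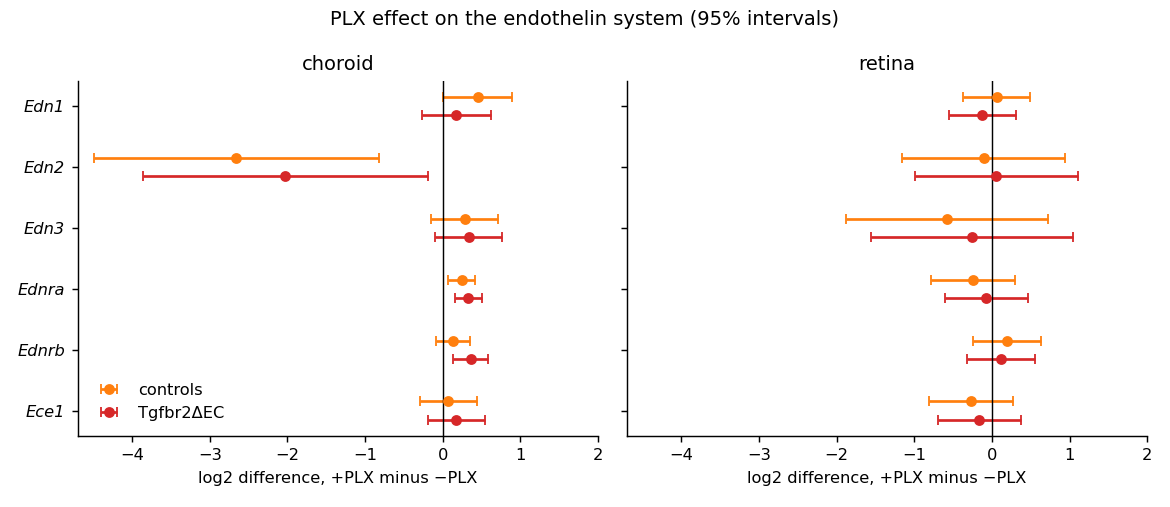
Log2 difference between mice with and without PLX for each gene, in controls and in *Tgfbr2ΔEC* mice, in choroid (left) and retina (right), with 95% intervals from limma. In choroid *Ednra* lies above 0 in both genotypes and *Edn2* below 0, with wide intervals for *Edn2*, and every interval in retina includes 0.

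Some genes of the wider pathway were called with PLX in choroid. In controls 1 of 7 tested processing genes and 2 of 18 signalling genes were lower in choroid and 1 was higher, and in *Tgfbr2ΔEC* mice 1 and 2 were lower and 0 higher. Of all 23619 genes 3.75% were called in controls and 4.06% in *Tgfbr2ΔEC* mice, with 743 of 885 and 826 of 958 of them lower. Over both genotypes 1 processing gene was lower, and 3 signalling genes were lower and 3 higher, beside 7.13% of all genes, 1195 lower and 489 higher. *Arrb2*, encoding a β-arrestin that ends receptor signalling, fell by 1.42 on the log2 scale in controls (SE 0.15, adjusted p = 2.15e-06 from limma) and by 1.26 in *Tgfbr2ΔEC* mice (SE 0.15, adjusted p = 9.47e-06). *Gna12* fell by 0.44 and 0.36 (SE 0.06 each). *Ctsa*, encoding the carboxypeptidase, which can degrade endothelin-1, fell by 0.32 and 0.50 (SE 0.08 each). *Nos3*, the endothelial nitric oxide synthase gene, rose by 0.54 in controls (SE 0.13, adjusted p = 0.0190 from limma) and differed by 0.10 in *Tgfbr2ΔEC* mice (SE 0.13, adjusted p = 0.825; interaction -0.44, adjusted p = 0.665). Over both genotypes *Nos3*, *Plcb4* and *Itpr3* were higher, by 0.32, 0.26 and 0.27, and *Plcb2* also fell, by 0.79 (SE 0.17). The medians of the lists over both genotypes were -0.20 and -0.01, against 0.00 for all genes. In retina *Plcb2* was the single gene of either list called, over both genotypes (-1.56, SE 0.30, adjusted p = 0.00604 from limma), where 6 processing and 18 signalling genes were tested, beside 1.09% of 23243 genes. Between genotypes 0 genes of either list were called in either tissue (limma). At an unadjusted p of at most 0.05 there were 4 without and 3 with PLX in choroid, beside 2184 and 889 of 23619 genes, and 1 and 0 in retina, beside 758 and 629 of 23243 genes.

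How the genes varied between mice of one group was compared with marker scores in choroid, where 0 of 60 relations passed the threshold and 10 had an unadjusted permutation p of at most 0.05. Of these, *Ednrb* went with the pigment cell score (r = 0.72, rho = 0.65, p = 0.0021, adjusted p = 0.0897; r = 0.62 without the 2 farthest mice), and so did *Edn3* (r = 0.70, rho = 0.65, permutation p = 0.00669, adjusted p = 0.1; 0.71 without them). *Edn3* was inversely related to the mural score (r = -0.65, rho = -0.70, permutation p = 0.00299, adjusted p = 0.0897; -0.66). *Ednra* went with the endothelial score (r = 0.64, rho = 0.57, permutation p = 0.0111, adjusted p = 0.133; 0.61) and *Edn2* with the neural retina score (r = 0.65, rho = 0.65, permutation p = 0.00511, adjusted p = 0.1; 0.61). Between the tissues of one mouse, 0 of 6 genes were related, with r from -0.31 for *Ednrb* to 0.33 for *Ednra* (permutation p of 0.177 or more, adjusted p of 0.603 or more, n = 20).

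The protein-coding genes whose levels followed each member most closely over the 20 mice, centred on group means, are given as a description without a test, since they are the highest of 13640 genes in choroid and 12772 in retina. For *Edn3* in choroid they were *Crispld2* (r = 0.92), *Tsc22d1* (0.89) and *Sh3bp5* (0.89). *Ednra* was followed by *Sema6a* (0.85), *Tcf4* (0.80) and *Tanc2* (0.79), *Ednrb* by *Cd274* (0.87), *Glrb* (0.85) and *Mical3* (0.83), and *Ece1* by *Rcan3* (0.85), *Drosha* (0.85) and *Eng* (0.84). For *Edn1* the highest values were lower, with *Emc7* (0.76), *Yars2* (0.75) and *Med9* (0.73). In retina *Edn2* was followed by *Agtpbp1* (0.93), *Irf9* (0.92) and *Rfx2* (0.92), and *Edn1* by *Fermt2* (0.88), *Lpar6* (0.83) and *Cd93* (0.82). *Ednrb* reached 0.72 with *Xpc*, 0.71 with *Xrcc2* and 0.70 with *Hars2*, and *Ece1* 0.74 with *mt-Nd6*, 0.74 with *Tmem176a* and 0.71 with *Nudt21*.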

How the data were processed

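Per the labels and the study's methods, polyadenylated RNA of retina and central choroid was sequenced, and the authors estimated reads with salmon 1.10.1 (GRCm39), checked them with FastQC 0.11.5 and normalized them with DESeq2 1.36.0. The deposited signal is a normalized count per gene, not whole and scaled over both tissues together (median ratio 1.0082 in every library over 15800 genes). All 40 columns were matched by mouse number and tissue, and symbols came from GENCODE release 39 (53700 of 54307 identifiers; 607 did not match). Of low values 50.3% to 78.0% per library lay near whole reads, so reads were not recovered, no count test was run, and depths are approximate.

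Genes with a mean of at least 1 (23619 in choroid, 23243 in retina, 24317 over both) were tested with limma 3.58.1 (R 4.3.3, mean-variance trend) on log2(normalized count + 1), a scale that understates changes of low genes, with 4 groups per tissue in one fit, no covariates, and Benjamini-Hochberg adjustment at 0.05. The authors' covariates (sex and neuronal percentage) were not in the main test and were approximated by scores as alternatives. Single values were compared by two-sided exact permutation tests (smallest p 0.0079), correlations by 100000 permutations within groups. The floor of 3 reads covers counting error only. Fits were first tested on simulated data. Retina and choroid with one number are from one mouse. Deviations from group means correlated by -0.158 to 0.289 between them (median 0.126, 20 pairs). Replicates are separate mice.

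The members and lists were chosen with earlier results of these data known. Named genes are the 6 members, *Tgfbr2*, up to 4 pathway genes of lowest p past the threshold per comparison, and the 3 genes most like each member with a mean of at least 50. Others are said to be chosen after values were seen. With PLX over both genotypes in choroid, more pathway genes than these 4 were named, also after values were seen. Alternatives were pseudocounts of 0.5 and 5, minimum means, scalings, scores as covariates, separate fits of 10 mice, and omission of single mice. Calculations used scipy 1.17.1, numpy 2.4.6 and pandas 2.3.3 under Python 3.11.15.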

Additional observations from a re-analysis of the deposited data

Results flagged for a closer look

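Of 48 groups of 5 mice (6 genes in 8 groups), 3 held a mouse whose gap to its nearest neighbour was more than 0.71 of the group's range, where chance gives about 1 in 20, or 2.4. *Edn1* in *Tgfbr2ΔEC* retinas without PLX was at 109 normalized counts in mouse 6 and 53.3 to 63.2 in the others (0.822 of the range). *Edn3* in *Tgfbr2ΔEC* retinas with PLX was at 50.6 in mouse 18 and 4.58 to 14.1 in the others (0.793). *Edn3* in *Tgfbr2ΔEC* choroids without PLX was at 8888 in mouse 10 and 5867 to 6150 in the others (0.906). Their cause was not tested.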

How the results depend on the processing

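The tissue comparison kept all 6 calls under every alternative run, including the replicate block that pairs the tissues of a mouse (6 of 6, log2 differences as before, 19855 genes called), and when each mouse was left out (6 to 6). In the replicate block each member's adjusted p was larger than without pairing, from 7.89e-23 for *Ednra* to 9.40e-12 for *Edn2* (limma). Adjusted for the neural retina score, the members called with PLX in choroid were 1 in controls, 0 in *Tgfbr2ΔEC* mice and 1 over both genotypes. In *Tgfbr2ΔEC* mice the fit of 10 mice called 2. Exact permutation tests without adjustment passed for 2 members in each of the choroid comparisons of genotype with PLX, PLX in controls and PLX in *Tgfbr2ΔEC* mice. Of all genes only the members and *Tgfbr2* were tested in this way, so no share of all genes stands beside these counts. With adjustment limma called 0, 0 and 1 members in these comparisons. Leaving out each mouse gave 0 to 1 members with PLX in control choroids, 0 to 2 in *Tgfbr2ΔEC* choroids and 2 to 3 over both, and 0 to 0 in each genotype and interaction comparison and in retina. Alternatives were run for members with PLX in choroid and between tissues, for *Edn2*, *Ednra* and *Ednrb* between genotypes in choroid, for *Ednra* and *Ednrb* in the choroid interaction, and for *Edn2* with PLX in retina. Among these, directions changed in 4 differences, none of which had passed. These were *Edn2* between genotypes without PLX in choroid (-0.76 with the neural retina score), *Ednrb* there (-0.00696 with upper-quartile scaling and -0.00482 with the sex score, -0.0554 to 0.0632 when mice were left out), *Ece1* with PLX in controls (-0.0307 to 0.153 when mice were left out), and *Edn2* with PLX in retina (0.0427 and 0.0124 with the neural retina and sex scores, -0.231 to 0.118 when mice were left out). In proportion, counts over all genes moved most between genotypes in choroid without PLX, from 1 to 303 in the fit of 10 mice, to 411 without mouse 15 and to 0 with a mean of at least 10. With PLX the 1 gene was also lost at that minimum, at a pseudocount of 5, with either score, in the fit of 10 mice and without any one of 15 of the 20 mice. With PLX in choroid they were 572 in the 10 control mice against 885, and 537 against 958 in *Tgfbr2ΔEC* mice adjusted for the neural retina score. When single mice were left out, they ran from 652 to 1405 in *Tgfbr2ΔEC* mice and from 1410 to 2127 over both genotypes. In retina, a mean of at least 10 gave 104 against 171 in controls and 154 against 254 over both genotypes. *Ednrb* with PLX over both genotypes in choroid passed with upper-quartile scaling and with a mean of at least 10. The causes were not tested. With 5 mice a group, intervals were widest for *Edn2* in choroid and *Edn3* in retina, whose values reached the floor or near it.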
